A study of Mus musculus with 14 samples.

Results

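The comparison described here is the change in mRNA levels of 3T3-L1 cells, a mouse preadipocyte line, between the last hours of the hormone mixture that starts fat cell differentiation and the hours in insulin alone that follow it. It was made from 8 of the 14 expression arrays of the series, chosen by their labelled hour: the 4 arrays at 96 and 192 h were set against the 4 arrays at 36 and 48 h, and the arrays at 0 h (2) and at 12 and 24 h (4) served as reference points. All cells carried a retrovirus, either empty or encoding SETD5 with a V5 tag, a chromatin-associated protein of the SET domain family, and each arm was a stably transduced, drug-selected population in which a weak viral promoter drove the transgene. The study gives its line with the moderate SETD5 level as the one in use unless stated otherwise. Confluent cells at 0 h received insulin (1 µg/ml), dexamethasone (0.25 µM) and isobutylmethylxanthine (0.5 mM) for 48 h, then insulin (1 µg/ml) alone with fresh medium every 2 days. Each virus and hour was represented by 1 array, so that different hours stood in for replicates and every p-value below measures only the spread among these arrays. Withdrawal of dexamethasone and isobutylmethylxanthine, longer time in culture and progress of differentiation were the same contrast here and cannot be told apart.

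The mixture acts through separate routes. Dexamethasone binds the glucocorticoid receptor, a transcription factor that enters the nucleus with its ligand, and isobutylmethylxanthine blocks phosphodiesterases, so that cAMP accumulates and protein kinase A phosphorylates the transcription factor CREB. Insulin acts through its own and the IGF-1 receptor and remained present throughout, whereas fat cell maturation, driven by PPARγ and C/EBPα, continues after the inducers have been removed.

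A gene's level is given as the intensity of 1 probe set (the probe set with the highest mean over the 14 arrays), scaled so that each array had a trimmed mean of 100. Differences are given as log2 of the intensity plus 16, which understates the change of dim genes, with the standard error (SE) of the limma fit and a p-value adjusted by the Benjamini-Hochberg method over the 8682 genes that reached an intensity of 50 on at least 3 arrays. The late step is the mean difference, 96 and 192 h minus 36 and 48 h, with virus as a block (8 arrays), and a gene was called when its adjusted p was below 0.05. Of the tested genes, 862 rose (9.93%) and 787 fell (9.06%) in the late step, and the median late step over all tested genes was -0.005. The balance of rises and falls turned with scaling, to 780 rises and 945 falls when all arrays were set to a common median and to 718 and 722 after quantile normalization. The filter on low intensity kept 317 genes only through their insulin only arrays, 154 of them among the rises, and 93 only through their end of mixture arrays, 16 of them among the falls. Such genes could be tested only because they were high in that group, and this is said where they are named. The shares of rises and falls in the gene lists below can include them. Every count of called list members in the late step stands beside 9.93% rises and 9.06% falls over all genes, and no list was tested. All 1649 called genes had the same sign in both viruses, whose arrays were pooled to make the call. By values alone, all 4 insulin only arrays lay above all 4 end of mixture arrays for 1004 genes (11.6%) and below them for 1100 genes (12.7%). The counts depended on single arrays. They were 552 rises and 445 falls without the empty virus array at 36 h, 289 and 216 without the empty virus array at 48 h, 303 and 233 without the SETD5 array at 36 h, 392 and 361 without the SETD5 array at 48 h, and 325 and 279 without the SETD5 array at 192 h.

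Across the 8 arrays, the summed intensity of 8 fat cell markers was 4170.4 to 11434.6 at the end of the mixture and 9924.6 to 34479 in insulin alone, and that of 8 fibroblast markers was 26335.3 to 28216.1 and 27185.8 to 33518.2. None of the measured macrophage, endothelial, bone, brown fat or epithelial markers reached 50 on any of the 8 arrays, and 1 of 6 skeletal muscle markers did. Only 4 of 6 bone and cartilage markers were measured. Lyz2 of macrophages was just under the limit at 49.7 (SETD5 virus, 192 h), as was Epcam of epithelial cells at 49.2 (empty virus, 96 h). In such bulk RNA a smaller number of cells of a kind and less RNA per cell cannot be told apart. Setd5, measured by a probe set whose place relative to the viral transcript is not given, had intensities of 292.3 to 317.5 with the SETD5 virus at 36 and 48 h and 297.7 to 298.2 with the empty virus, so this probe set did not check the labels.

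Part of the late step ran against what the mixture had done. The response to the mixture was measured on other arrays, 12 and 24 h minus 0 h with virus as a block (6 arrays), in which 924 genes were called higher (10.6%) and 1526 lower (17.6%). Without either 0 h array only 1 gene was called there, with 1781 genes at an unadjusted p below 0.05 when the empty virus array was left out and 1882 when the SETD5 array was left out. All 2450 called genes kept their sign, on arrays that were part of the call. Of the 924 genes called higher early, 315 (34.1%) fell in the late step and 7 rose. The 315 genes made up 40% of all falls. Of the 1526 called lower early, 565 (37%) rose and 10 fell. The 565 genes made up 65.5% of all rises. The 2 comparisons share no array. Of the 897 genes called in both, 880 (98.1%) moved in opposite directions. The remainder of the late step had no called early counterpart, which held for 290 of the rises (33.6%) and 462 of the falls (58.7%).

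**Figure D1:**
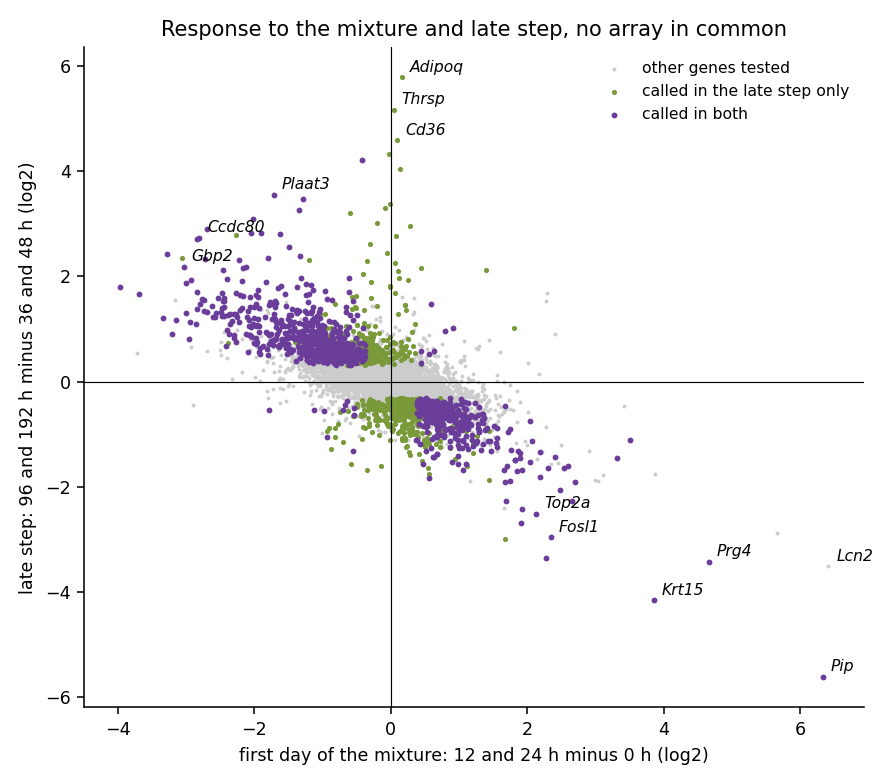
Each point is a gene, with the mixture response (12 and 24 h minus 0 h) on the horizontal axis and the late step (96 and 192 h minus 36 and 48 h) on the vertical axis, both as differences in log2 of intensity plus 16. Of the 897 genes called in both, 880 lie in the upper left and lower right corners of the plot.

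The called genes were also sorted by where they stood relative to 0 h, with 1.5-fold as the limit. The 36 and 48 h arrays enter both the call and this sorting, which favours returns over other classes. The class counts here and in the lists below are therefore a description and were not tested. At the end of the mixture, 736 of the tested genes (8.48%) were at least 1.5-fold above 0 h and 1117 (12.9%) at least 1.5-fold below. Among the rises, 480 (55.7%) returned from below: their median was -1.02 at the end of the mixture and -0.24 in insulin alone, relative to 0 h. A further 343 rises (39.8%) started near the 0 h level and are called new rises, and 23 (2.67%) were further rises of genes already above it. Among the falls, 281 (35.7%) returned from above, with medians of 0.92 and then 0.15 relative to 0 h, and 486 (61.8%) were new falls, whose median late step was -0.50. The counts of returns from above and below were 134 and 199 without the empty virus array at 48 h, 122 and 204 without the SETD5 array at 36 h, 169 and 247 without the SETD5 array at 48 h, and 145 and 217 without the SETD5 array at 192 h.

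Many genes of the cAMP route were lower in insulin alone than at the end of the mixture. Of 20 tested members of a list of cAMP response genes, 10 (50%) fell and 1 (5%) rose, with a median late step of -0.80, and all 10 that fell were returns from above. In the mixture response, 14 of the 20 were called higher and 3 lower. With the empty virus, the list median relative to 0 h went from 1.00 (36 h) and 0.78 (48 h) to 0.36 (96 h) and 0.19 (192 h). With the SETD5 virus it went from 1.08 and 1.13 to 0.30 and 0.02. The core of the cAMP response element, TGACG on either strand, lay in the promoters of 12 of the 16 listed genes (75%) with an entry in the RefSeq promoter table, which holds 250 bases before and 50 after each start site, and in 5 of the 8 among them that fell (62.5%). The share was 38.3% of all tested genes, 38.9% of all returns from above and 23% of all genes in the table. Counted by promoter, since a gene can have several, it was 48.1% for the list, 33.2% for the tested genes and 20.8% for the table. The full element, TGACGTCA, lay in 1 of the 16 (6.25%), Dusp1. It lay in 3.69% of tested genes, in 2.56% of all returns from above and in 2.03% of all genes in the table. The promoters of 3 genes that fell and hold the core are printed here, 5′ to 3′ on the gene's strand in GRCm38.p6, with each match to TGACG or to its reverse complement in capitals. The matches overlap where they form the full element in Dusp1.
Nr4a1, chr15:101266596-101266895, plus strand: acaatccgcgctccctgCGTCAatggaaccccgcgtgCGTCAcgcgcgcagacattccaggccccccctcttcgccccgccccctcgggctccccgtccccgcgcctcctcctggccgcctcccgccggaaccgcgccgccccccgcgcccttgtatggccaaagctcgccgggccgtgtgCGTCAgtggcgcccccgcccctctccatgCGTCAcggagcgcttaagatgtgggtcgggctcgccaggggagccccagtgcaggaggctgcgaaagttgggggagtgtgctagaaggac
Dusp1, chr17:26508423-26508722, minus strand: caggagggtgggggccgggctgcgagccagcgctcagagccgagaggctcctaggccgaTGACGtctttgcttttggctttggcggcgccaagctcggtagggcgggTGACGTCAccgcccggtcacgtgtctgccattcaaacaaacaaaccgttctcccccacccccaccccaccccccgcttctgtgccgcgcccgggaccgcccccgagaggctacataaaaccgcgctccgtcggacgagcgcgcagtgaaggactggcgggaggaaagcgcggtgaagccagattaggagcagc
Rgs2, chr1:144004100-144004399, minus strand: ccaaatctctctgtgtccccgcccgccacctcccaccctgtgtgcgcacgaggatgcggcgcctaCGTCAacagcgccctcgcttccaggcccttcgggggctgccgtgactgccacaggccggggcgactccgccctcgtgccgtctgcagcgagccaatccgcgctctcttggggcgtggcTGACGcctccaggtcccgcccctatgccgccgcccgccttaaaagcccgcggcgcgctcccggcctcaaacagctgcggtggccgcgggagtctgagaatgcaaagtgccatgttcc

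Nr4a1, an orphan nuclear receptor of the immediate early class, has 4 such matches. Its intensities were 417.8 and 338.9 at 36 and 48 h and 186.4 and 156.5 at 96 and 192 h with the empty virus, and 492.2 and 568.3 and then 221.1 and 224.6 with the SETD5 virus. All 4 insulin only arrays lay below all 4 end of mixture arrays. The late step was -1.13 ± 0.11 (SE, n = 8 arrays, adjusted p = 0.00186). Dusp1, a phosphatase that inactivates MAP kinases and responds to both cAMP and glucocorticoid, went from 987.6 and 895.9 to 424.1 and 191.4 with the empty virus. With the SETD5 virus it went from 1442.7 and 980.2 to 438.9 and 192.6. Its groups did not overlap, and the 192 h arrays were at the 0 h levels of 200.8 and 213.9. The late step of Dusp1 was -1.82 ± 0.30 (adjusted p = 0.00949). Rgs2, which shortens signalling by G proteins, was at 3804.7 and 3580.3 and then 2466.2 and 1782.9 with the empty virus, while the SETD5 virus gave 3741.3 and 3465.3 and then 1601.6 and 599.1. Every Rgs2 array in insulin alone was below every array of the mixture hours, and the late step was -1.33 ± 0.32 (adjusted p = 0.0265).

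Isobutylmethylxanthine inhibits phosphodiesterases, the enzymes that degrade cyclic nucleotides. Of 9 tested phosphodiesterase genes, counted after their values were seen, 3 were called (Pde4b, Pde4d and Pde10a), all lower. Of all tested genes 9.06% were called lower, and the family as a set was not tested. Pde4b was at 311.5 and 323.4 with the empty virus and 243.0 and 276.7 with the SETD5 virus at the end of the mixture. In insulin alone it was at 83.2 and 78.0 and at 44.5 and 65.3. The groups were far apart, the values at 96 h were already as low as those at 192 h, and the late step was -1.88 ± 0.12 (adjusted p = 0.000605). Pde4d, from the same family, went from 695.8 and 639.4 to 253.0 and 159.1 with the empty virus and from 825.0 and 793.8 to 266.3 and 205.8 with the SETD5 virus, again without overlap (-1.69 ± 0.15, adjusted p = 0.00145). Nfil3, a basic leucine zipper repressor, fell as well (-1.64 ± 0.24, adjusted p = 0.00693), as did Irs2, an insulin receptor substrate and known CREB target (-1.11 ± 0.16, adjusted p = 0.00653). The riser among the list was Ppargc1a, tested only through its insulin only arrays and known as a coactivator of mitochondrial genes, which went from 11.1 to 19.6 at the end of the mixture to 31.6 to 132.8 in insulin alone (1.43 ± 0.37, adjusted p = 0.0324), after a mixture response of -1.70. Crem, which encodes a cAMP-inducible repressor, had a late step of -0.04 ± 0.19 (adjusted p = 0.891), and its sign turned under several other settings.

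**Figure D2:**
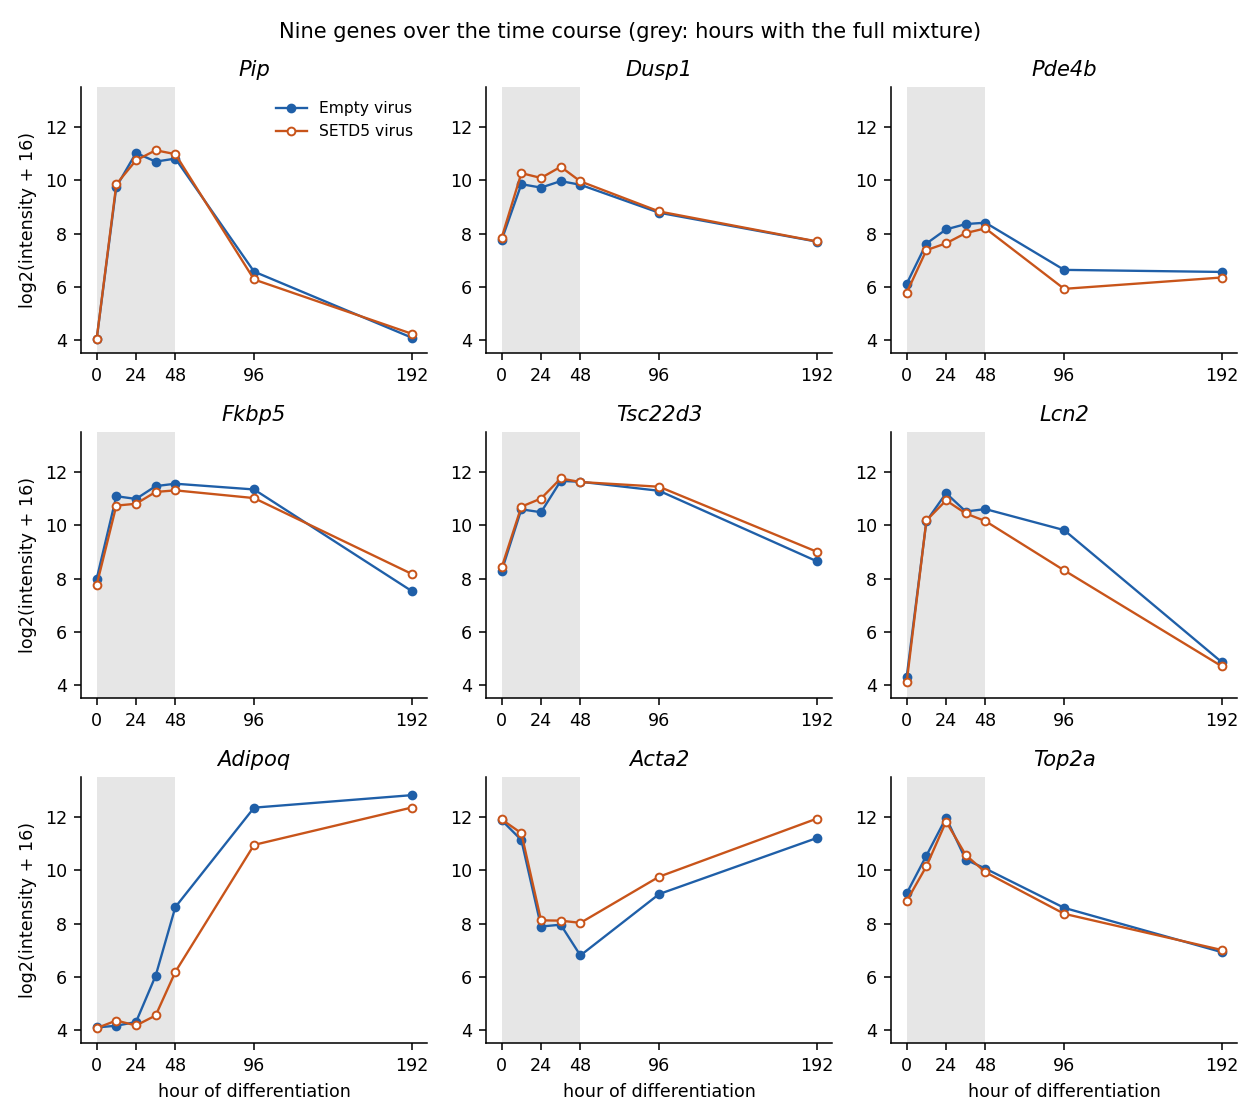
Levels of 9 genes on the 14 arrays, as log2 of intensity plus 16, against the hour of differentiation for the empty and the SETD5 virus, with the 48 h of the mixture shaded grey. Pde4b is low by 96 h, Fkbp5 and Tsc22d3 stay high at 96 h and are low at 192 h, and Adipoq and Acta2 are highest at 192 h within the hours compared.

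Targets of the glucocorticoid receptor took longer. Of 22 tested members, 4 (18.2%) fell and 1 (4.55%) rose in the late step, with a median of -0.57. To describe this, a model chosen after seeing the data held 96 h and 192 h apart, each with 2 arrays. Over all genes it called 197 lower (2.27%) and 268 higher (3.09%) at 96 h than at the end of the mixture, 1393 lower (16%) and 1369 higher (15.8%) at 192 h, and 157 lower (1.81%) and 93 higher (1.07%) at 192 h than at 96 h. Of the glucocorticoid targets, 3 were lower at 96 h, 15 at 192 h, and 10 lower at 192 h than at 96 h. Of the cAMP response genes, 6 were lower at 96 h, 13 at 192 h, and 2 lower at 192 h than at 96 h. The medians against the end of the mixture were -0.09 at 96 h and -0.97 at 192 h for the glucocorticoid list, and -0.60 and -0.998 for the cAMP list. Dusp1 is in both lists. Leaving out 1 of the 8 arrays at a time gave 7 to 10 glucocorticoid targets and 0 to 2 cAMP response genes lower at 192 h than at 96 h. At 96 h it gave 0 to 5 glucocorticoid targets and 1 to 10 cAMP response genes lower than at the end of the mixture. Over all genes, the counts at 192 h against 96 h were 6 higher and 22 lower without the empty virus array at 96 h, 17 and 36 without the SETD5 array at 96 h, 37 and 56 without the empty virus array at 192 h, 266 and 295 without the SETD5 array at 192 h, and 55 and 107 without the empty virus array at 48 h.

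Fkbp5, a cochaperone of the receptor and a classical target of it, was at 237.3 and 199.4 at 0 h in the empty and the SETD5 virus. The empty virus arrays gave 2836.3 and 3019.9 in the mixture hours, 2597.3 after 96 h and 169.6 after 192 h. With the SETD5 virus it was at 2433.4 and 2537.0, then 2071.5, then 274.0. The 96 h level was thus close to that of the mixture in both viruses, and the 192 h level close to that before it. The difference was -0.22 ± 0.20 at 96 h (adjusted p = 0.543), -3.55 ± 0.20 at 192 h (adjusted p = 2.37e-05) and -3.33 ± 0.23 between them (adjusted p = 0.000346), and the pooled late step was not called (adjusted p = 0.134). Tsc22d3, the glucocorticoid-induced leucine zipper, had the same shape, at 3157.6 to 3462.5 in the mixture, 2508.7 and 2790.6 at 96 h, and 387.3 and 500.9 at 192 h. Its drop between 96 and 192 h was -2.54 ± 0.14 (adjusted p = 0.000141), and the late steps of the gene's 3 probe sets were -1.57, -1.72 and 0.10, none of them called.

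The stress-induced inhibitor of mTORC1 Ddit4 was at 1311.9 and 889.6 at 96 h and at 134.0 and 169.2 at 192 h (-2.72 between them, adjusted p = 0.000539). Cebpd, which encodes C/EBPδ of the early adipogenic cascade, was at 940.2 to 1107.5 in the mixture and 868.5 and 1060.1 at 96 h, and was at 142.8 and 252.1 at 192 h (-2.24, adjusted p = 0.000382). Klf5, a zinc finger factor that acts downstream of C/EBPβ and C/EBPδ, was at 182.1 and 169.0 and then 14.2 and 27.5 (-2.40, adjusted p = 0.000448). In Lcn2, a secreted lipocalin, the viruses differed at 96 h, with 889.6 for the empty and 301.2 for the SETD5 virus, against 1129.3 to 1551.2 in the mixture and 13.1 and 10.1 at 192 h (-4.28, adjusted p = 0.000359). The late steps of Ddit4, Cebpd and Klf5 were not called. For these genes and Lcn2 both 192 h arrays were below both 96 h arrays. Klf15, a glucocorticoid target that promotes fat cell differentiation, went the other way, from 0.8 to 6.1 in the mixture to 62.4 and 550.8 with the empty virus and 13.8 and 56.7 with the SETD5 virus (2.44 ± 0.68, adjusted p = 0.0398). It was tested only through its insulin only arrays. The Per1 clock gene, often induced by both hormones, had a late step of -0.34 ± 0.19 (adjusted p = 0.22). The palindromic glucocorticoid element, AGAACA and TGTTCT with 3 bases between them, was matched in the promoter window of 1 of 17 listed genes (5.88%) of 0.014% of tested genes and of 0.0111% of all genes in the table.

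**Figure D3:**
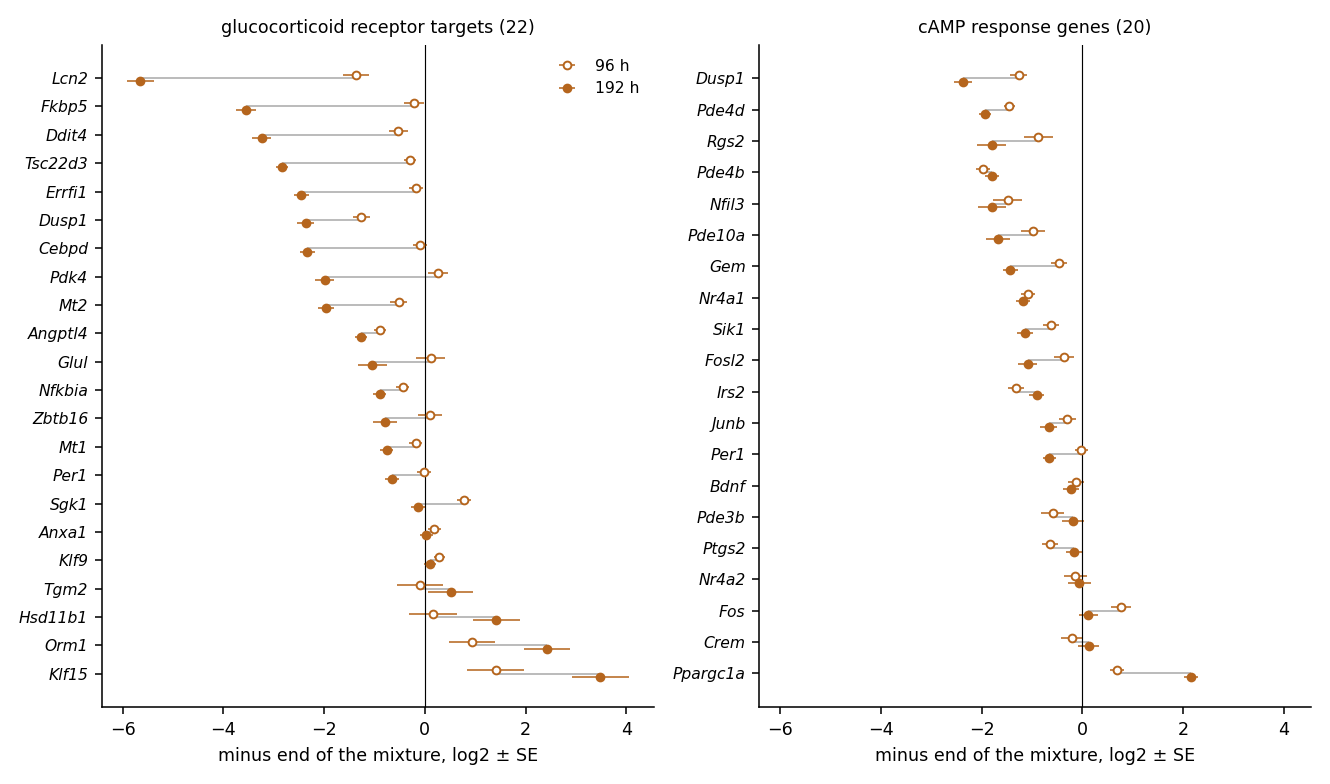
Each row is a tested gene of the glucocorticoid (22) or cAMP (20) list, with its difference from the end of the mixture (log2 of intensity plus 16) at 96 h and at 192 h from the model that holds the hours apart. Many glucocorticoid targets lie near 0 at 96 h and below it at 192 h, with list medians of -0.09 and -0.97, against -0.60 and -0.998 for the cAMP list.

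The largest falls included secreted proteins and a keratin that were far higher in the mixture than at 0 h. Pip, prolactin-induced protein, was at 0.2 at 0 h in both viruses. With the empty virus it was at 1651.8 and 1788.7 at the end of the mixture and at 78.8 and 1.0 in insulin alone. With the SETD5 virus it was at 2226.2 and 2010.0 and then at 61.2 and 2.8. The lowest mixture value was far above the highest insulin only value, and the late step was -5.62 ± 0.56 (adjusted p = 0.00186), 49.2-fold on the offset scale. Krt15, a keratin, fell by 4.16 (SE 0.23, adjusted p = 0.000381), and Prg4, the joint lubricant lubricin, fell by 3.43 (SE 0.41, adjusted p = 0.00419). Ang3, a ribonuclease of the angiogenin family, was at 374.3 and 1185.4 and then 318.3 and 0.4 with the empty virus, and its SETD5 values were 185.5 and 863.2 and then 51.9 and 4.8 (-3.35 ± 0.93, adjusted p = 0.0391). Saa3, an acute phase protein, was at 301.4 to 530.3 in the mixture and 17.5 to 91.2 afterwards (-2.98 ± 0.27, adjusted p = 0.00145). Fosl1, a subunit of the AP-1 factor, was at 198.6 to 367.5 and then 9.8 to 55.6 (-2.96 ± 0.30, adjusted p = 0.00186). Ecm1, an extracellular matrix protein, fell by 2.68 (SE 0.36, adjusted p = 0.00557). In Pip, Krt15, Prg4, Saa3, Fosl1 and Ecm1 every insulin only array was below every end of mixture array, and in Ang3 the groups overlapped.

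Other falls began near or below the 0 h level. Tnc, tenascin C, was at 116.2 and 81.9 and then 26.2 and 30.4 with the empty virus, while the SETD5 virus gave 227.1 and 225.7 and then 44.9 and 67.2 (-1.56 ± 0.15, adjusted p = 0.00186). The groups did not overlap, and levels were higher with SETD5 at each of the 4 hours. Aqp1, a water channel, and Bcat1, the cytosolic enzyme that transaminates branched-chain amino acids, were already below 0 h and lower still in insulin alone, with late steps of -1.76 ± 0.37 (adjusted p = 0.0184) and -1.64 ± 0.26 (adjusted p = 0.00799). Hmga2, a chromatin protein of immature cells, was at 602.0 to 838.9 and then 103.8 to 465.7 (-1.37 ± 0.39, adjusted p = 0.0409). Id3, a helix-loop-helix inhibitor of differentiation, fell by 1.06 (SE 0.15, adjusted p = 0.00612).

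The largest returns from below were those of Fbln7, a fibulin of the extracellular matrix (2.83 ± 0.42, adjusted p = 0.00729), and Tinag, a basement membrane glycoprotein (2.82 ± 0.41, adjusted p = 0.00701). Fbln7 was at 0.5 to 6.9 and then 41.1 to 379.7, Tinag at 0.4 to 1.6 and then 30.8 to 251.3, and both were tested only through their insulin only arrays. Of 22 tested genes of the actin cytoskeleton and contractile apparatus, 7 were called in the late step (31.8%), with a median of 0.42 over the list, and all 7 rose from below the 0 h level. In the mixture response, 13 of the 22 had been called lower. Acta2, smooth muscle actin, was at 3780.0 and 3856.4 at 0 h. It was at 233.2 and 95.8 at the end of the mixture and at 537.5 and 2364.6 in insulin alone with the empty virus. With the SETD5 virus it was at 261.0 and 245.3 and then at 854.9 and 3930.8. Groups did not overlap, and only the SETD5 array at 192 h reached the 0 h range. The late step was 2.78 ± 0.56 (adjusted p = 0.0164), with a further 2.14 between 96 and 192 h (adjusted p = 0.0106). Myl9, a myosin light chain, was at 11.3 to 42.8 and then 32.2 to 857.0, with overlap (2.42 ± 0.71, adjusted p = 0.0476), and Tpm1, a tropomyosin, at 231.9 to 392.0 and then 345.2 to 1586.4, with overlap (1.30 ± 0.32, adjusted p = 0.0281). Cryab, a small heat shock protein, rose by 2.71 ± 0.29 (adjusted p = 0.00245), and Ccdc80, a secreted protein of preadipocytes and fat cells, was at 138.9 to 164.4 and then 518.8 to 2700.7 (2.73 ± 0.49, adjusted p = 0.0124).

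Amino acid stress genes were among the returns. Of 23 tested targets of ATF4 and tRNA synthetases, 9 were called in the late step (39.1%), and all 9 rose from below the 0 h level. The list median was 0.41, and 10 of the 23 had been called lower in the mixture response. Phgdh, the first enzyme of serine synthesis, was at 289.0 and 401.8 and then 948.1 and 1453.5 with the empty virus. With the SETD5 virus it was at 371.4 and 333.1 and then 858.7 and 1163.4. The groups did not overlap and the late step was 1.60 ± 0.18 (adjusted p = 0.00277). Trib3, a pseudokinase that binds AKT, rose by 1.55 ± 0.30 (adjusted p = 0.0155), Chac1, which degrades glutathione, by 1.58 ± 0.35 (adjusted p = 0.0204), and Ddit3, which encodes the C/EBP antagonist CHOP, by 1.13 ± 0.24 (adjusted p = 0.0194). Among 17 chaperones and related genes of the endoplasmic reticulum, 1 was called, Herpud1 (1.08 ± 0.30, adjusted p = 0.0374).

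Interferon-induced and lysosomal genes also held returns from below, 4 and 6 in number, while matrix genes went both ways. Of 12 interferon response genes 4 rose (33.3%) and 1 fell (8.33%), against 9.93% and 9.06% of all genes. In the mixture response 9 of the 12 had been called lower, against 17.6% of all genes. Gbp2, a guanylate-binding protein, was at 175.4 and 187.7 at 0 h, 5.8 to 18.6 at the end of the mixture and 59.2 to 276.0 in insulin alone (2.18 ± 0.40, adjusted p = 0.0127), without overlap and tested only through its insulin only arrays. Ifit2 and Ifit3 of this list were also tested only through those arrays, so its 33.3% rests in part on genes kept for being high there. Of 24 lysosomal genes 6 rose (25%), all from below, and 2 fell (8.33%), with Gaa, acid alpha-glucosidase, as the largest rise (1.10 ± 0.21, adjusted p = 0.0139). Of 36 matrix proteins 6 rose (16.7%) and 5 fell (13.9%), against 9.93% and 9.06% of all genes, with a list median of 0.05. Of these 11, 4 were returns from below and 3 returns from above. Col1a1, the α1 chain of collagen I, was at 338.3 to 471.9 and then 718.7 to 1359.4 (1.29 ± 0.16, adjusted p = 0.0046), so that all insulin only arrays lay above all mixture arrays. Of 15 matrix proteases and inhibitors 2 rose (13.3%), among them Adamts5, an aggrecanase (1.41 ± 0.21, adjusted p = 0.00734). Mmp11 of this list was tested only through its insulin only arrays. Of 19 preadipocyte and anti-adipogenic genes 4 rose and 2 fell, with Pdgfrb, the PDGF receptor of mesenchymal cells, at 423.7 to 548.2 and then 844.0 to 1552.6 (1.23 ± 0.17, adjusted p = 0.00634).

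Antioxidant genes went both ways, with 5 of 21 rising (23.8%) and 3 falling (14.3%), against 9.93% and 9.06% of all genes. In lists as small as those of this paragraph, a share rests on a few genes. Hmox1, heme oxygenase, was at 37.7 to 64.7 and then 112.6 to 306.8, without overlap (1.69 ± 0.25, adjusted p = 0.00755), while Gclc, a subunit of the enzyme that limits glutathione synthesis, was at 229.2 to 545.6 and then 80.8 to 130.1 (-1.65 ± 0.23, adjusted p = 0.00643). Of 13 clock genes 2 rose (15.4%) and 3 fell (23.1%). Dbp, an output gene of the clock, was at 48.4 to 79.0 and then 128.5 to 390.3 (1.46 ± 0.31, adjusted p = 0.0187). Of 8 chemokines and cytokines 3 rose and 3 fell (37.5% each), led by Cx3cl1 (-1.23 ± 0.19, adjusted p = 0.00781) and Ccl9 (1.10 ± 0.15, adjusted p = 0.00612), the latter tested only through its insulin only arrays. The same held for Ccl7 of this list. Of 12 acute phase and complement proteins 4 rose (33.3%) and 2 fell (16.7%), with Hp, haptoglobin, at 101.0 to 169.4 and then 201.2 to 1706.2 (2.12 ± 0.43, adjusted p = 0.0165) against the fall of Saa3.

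The insulin receptor substrates moved apart. Of 14 tested insulin signalling genes 3 rose (21.4%) and 2 fell (14.3%), with a list median of 0.04. Irs1 was at 683.3 and 798.3 at 0 h. With the empty virus it was at 284.6 and 354.1 and then 708.2 and 1564.2, and with the SETD5 virus at 271.5 and 352.3 and then 645.8 and 1311.3. The late step of Irs1 was 1.60 ± 0.28 (adjusted p = 0.0116), without overlap. Irs2, described above as a cAMP response gene, was at 225.8 and 240.6 and then 72.4 and 136.0 with the empty virus, while the SETD5 virus gave 186.2 and 193.3 and then 77.9 and 79.8. The substrates thus moved in opposite directions in both viruses, and each by more than the spread between arrays.

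**Figure D4:**
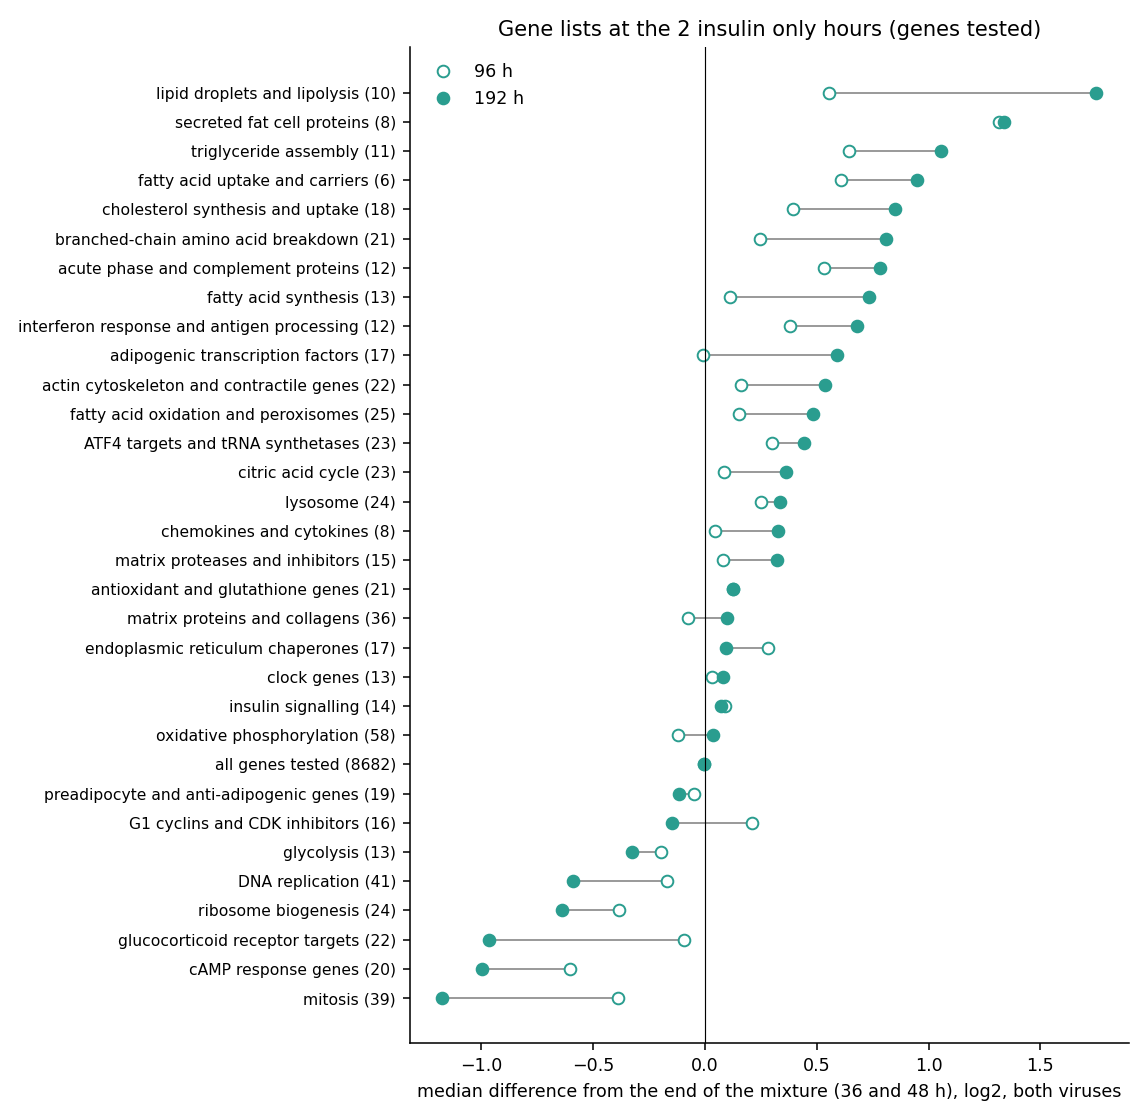
Median difference from the end of the mixture over the tested genes of each list, in log2 of intensity plus 16, at 96 h and at 192 h. The median over all tested genes is near 0 at both hours, and the lists lie between -1.18 (mitosis, 192 h) and 1.75 (lipid droplets and lipolysis, 192 h).

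Fat cell genes led the rises. Adipoq, the hormone adiponectin, was at 1.1 and 0.8 at 0 h. With the empty virus it was at 50 and 378.5 at the end of the mixture and at 5251.2 and 7276.1 in insulin alone, and with the SETD5 virus it was at 7.4 and 56.9 and then at 1979.5 and 5260.9. The groups did not overlap, and the late step was 5.78 ± 0.61 (adjusted p = 0.00222), 54.9-fold on the offset scale. Thrsp, a regulator of fatty acid synthesis, rose by 5.16 ± 0.52 (adjusted p = 0.00186), with 8.5 to 49.1 at the end of the mixture and 327.9 to 3919.8 in insulin alone. Cd36, a fatty acid transporter, was at 11.8 and 117.0 and then 1163.3 and 4403.1 with the empty virus, while the SETD5 virus gave 6.3 and 36.2 and then 239.5 and 1041.8 (4.58 ± 0.69, adjusted p = 0.00755). Cd36 was higher at each later hour of the 4 in both viruses. Cidec, a lipid droplet protein, rose by 4.32 ± 0.61 (adjusted p = 0.00631), and Gpd1, which supplies glycerol 3-phosphate, by 4.22 ± 0.71 (adjusted p = 0.01). Thrsp, Cd36, Cidec and Gpd1 were tested only through their insulin only arrays, which was not so for Adipoq and Fabp4. Fabp4, a fatty acid carrier, was already at 4435.7 with the empty virus at 48 h, above the 3627.9 of the SETD5 virus at 96 h, so its groups overlapped (2.62 ± 0.64, adjusted p = 0.0272).

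By list, 3 of 6 genes of fatty acid uptake (50%), 4 of 11 of triglyceride assembly (36.4%) and 4 of 10 of lipid droplets and lipolysis (40%) rose, which were all the genes called in these lists. Among the genes of these lists, Cd36, Slc27a1, Gpd1, Cidec and G0s2 were tested only through their insulin only arrays. Of 8 secreted fat cell proteins 4 rose (50%) and 1 fell (12.5%), and Rarres2, the chemoattractant chemerin, was at 25.6 to 147.0 and then 220.2 to 3548.3 (3.26 ± 0.53, adjusted p = 0.00874). Of 13 genes of fatty acid synthesis 2 rose and 1 fell. Of 17 adipogenic transcription factors 6 rose (35.3%) and 4 fell (23.5%). Cebpb, the early factor C/EBPβ, was at 3302.4 to 4083.4 and then 1277.9 to 2404.9, without overlap (-0.93 ± 0.16, adjusted p = 0.0107). Pparg, which encodes the master regulator PPARγ, was at 504.8 and 660.7 and then 816.8 and 1694.5 with the empty virus, but at 281.3 and 310.8 and then 256.2 and 273.7 with the SETD5 virus. Its late step was 0.43 ± 0.29 (adjusted p = 0.303). Cebpa, which sustains PPARγ, was at 59.7 and 93.3 and then 144.3 and 230.3 with the empty virus, while the SETD5 virus gave 45.6 and 53.0 and then 38.7 and 60.6 (0.56 ± 0.27, adjusted p = 0.167). Neither gene passed the test over both viruses, while Adipoq, Cd36 and Fabp4 did. The palindromic C/EBP site TTGCGCAA and a PPAR element of AGGTCA repeated with 1 base between lay in the promoters of 0.349% and 0.014% of tested genes and of 0.207% and 0.0481% of all genes in the table.

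Among the lists of energy metabolism the shares called ran from 1.72% to 30.8% in the direction with more calls. Of 21 genes of branched-chain amino acid breakdown 5 were called, all higher (23.8%), led by Mccc1, a subunit of methylcrotonyl-CoA carboxylase (1.56 ± 0.39, adjusted p = 0.0294). Of 25 fatty acid oxidation and peroxisomal genes 4 were called, all higher (16%). Of 58 oxidative phosphorylation genes 1 was called, lower (1.72%), with a median of -0.05, and of 23 citric acid cycle genes 1 rose and 1 fell. Of 13 glycolysis genes 4 were called, all lower (30.8%), with Pkm, pyruvate kinase, at 365.1 to 520.8 and then 121.7 to 328.9 (-1.03 ± 0.27, adjusted p = 0.0339). Of 18 genes of cholesterol synthesis and uptake 2 rose and 1 fell, and Insig1, which retains the sterol sensor in the endoplasmic reticulum, rose by 1.79 ± 0.43 (adjusted p = 0.0268).

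Proliferation genes were lower at the end of the time course. The mixture makes confluent 3T3-L1 cells divide again before they differentiate. Of 41 DNA replication genes 6 were called in the late step, all lower (14.6%), and of 39 mitosis genes 3, all lower (7.69%). Of all tested genes 9.06% were called lower, so the mitosis share was below that of all genes. In the model that holds the hours apart, 26 replication and 34 mitosis genes were lower at 192 h than at the end of the mixture, against 16% of all genes, and 1 mitosis gene was lower at 96 h. The list medians were -0.17 at 96 h and -0.59 at 192 h for replication, and -0.39 and -1.18 for mitosis. In the mixture response 32 of the 41 replication genes had been called higher, and 1 of the 39 mitosis genes, against 10.6% of all genes. That response pools 12 and 24 h, between which the mitosis list differed. Its median relative to 0 h was -0.28 at 12 h and 1.95 at 24 h with the empty virus. With the SETD5 virus it was -0.24 and 2.05. The promoters of mitosis genes often hold a cell cycle homology region, TTTGAA, and a CCAAT box. Either strand held TTTGAA in 24 of 33 mitosis genes with a promoter in the table (72.7%) and in 13.8% of tested genes, and CCAAT in 25 of 33 (75.8%) and 43.5%. Over all genes in the table the shares were 20.2% and 41.1%. The promoters of Top2a and Ccnb2 are given as examples, with matches to both motifs on either strand in capitals, 5′ to 3′ in GRCm38.p6.
Top2a, chr11:99024140-99024439, minus strand: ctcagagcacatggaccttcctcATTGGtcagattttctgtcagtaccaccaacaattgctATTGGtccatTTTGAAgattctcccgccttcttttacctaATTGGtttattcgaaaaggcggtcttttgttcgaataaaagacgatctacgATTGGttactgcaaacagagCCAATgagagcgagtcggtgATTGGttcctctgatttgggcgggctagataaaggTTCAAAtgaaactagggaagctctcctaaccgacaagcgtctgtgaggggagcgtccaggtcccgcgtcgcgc
Ccnb2, chr9:70421505-70421804, minus strand: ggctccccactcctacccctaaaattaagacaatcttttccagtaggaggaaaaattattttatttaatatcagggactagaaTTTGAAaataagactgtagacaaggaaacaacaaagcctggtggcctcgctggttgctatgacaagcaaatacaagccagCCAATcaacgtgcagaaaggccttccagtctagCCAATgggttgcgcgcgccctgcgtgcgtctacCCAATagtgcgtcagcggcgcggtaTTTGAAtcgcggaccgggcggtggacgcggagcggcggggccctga

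Top2a, the topoisomerase that untangles chromosomes before division, has 6 CCAAT and 2 TTTGAA matches. It was at 549.5 and 446.7 at 0 h and at 4031.8 and 3650.4 at 24 h. With the empty virus it was at 1340.3 and 1059.9 at the end of the mixture and at 370.7 and 106.0 in insulin alone, and with the SETD5 virus it was at 1515.0 and 962.9 and then 315.1 and 112.9. Both viruses thus ended below the 0 h level, without overlap between the groups (-2.52 ± 0.40, adjusted p = 0.0082). Ccnb2, a mitotic cyclin with 3 CCAAT and 2 TTTGAA matches, was at 325.0 and 136.3 and then 139.8 and 39.3 with the empty virus, while the SETD5 virus gave 332.4 and 106.2 and then 106.4 and 56.9. Its 48 h and 96 h values lay side by side, and the late step was not called (-1.21 ± 0.44, adjusted p = 0.0856), while the difference at 192 h was -1.77 ± 0.43 (adjusted p = 0.0156). Of the replication genes, Pcna, the sliding clamp of DNA polymerase, was at 2732.8 to 3888.6 and then 1311.8 to 1959.9, without overlap (-0.90 ± 0.17, adjusted p = 0.0132). Of 16 G1 cyclins and inhibitors 2 rose and 1 fell, the last being Myc, a growth factor-induced transcription factor counted with them (-1.30 ± 0.33, adjusted p = 0.03). Of 24 ribosome biogenesis genes 9 were called, all lower (37.5%), with a list median of -0.48. Nop56, a component of the box C/D particles that modify ribosomal RNA, was at 674.2 to 1323.4 and then 301.7 to 589.6 (-1.16 ± 0.23, adjusted p = 0.015).

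The late step was also estimated within each virus, from 4 arrays each in a common model. With the empty virus 126 genes were called (1.45%) and with the SETD5 virus 214 (2.46%). These counts were the least stable, from 0 to 1777 and from 0 to 733 when each of the 8 arrays was left out in turn. They were 1777 and 733 without the empty virus array at 96 h, 6 and 733 without the empty virus array at 192 h, 1 and 41 without the empty virus array at 36 h, 0 and 41 without the empty virus array at 48 h, 6 and 1 without the SETD5 array at 36 h, 6 and 19 without the SETD5 array at 48 h, 54 and 144 without the SETD5 array at 96 h, and 54 and 0 without the SETD5 array at 192 h. In this model, which leaves the hour out, the difference between the 2 steps passed the limma test for 0 genes, with a lowest adjusted p of 0.782 and 524 genes at an unadjusted p below 0.05, and for 80 genes without the empty virus array at 96 h.

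The viruses were arrayed at the same hours. With the hour as a block, a fit chosen after seeing the data that leaves 2 residual degrees of freedom, the difference between the steps was called for 38 genes (0.438%), with 1260 at an unadjusted p below 0.05. The step was lower with SETD5 for 35 of them and higher for 3, and 20 of the 38 were also called in the late step over both viruses. They included genes of triglyceride assembly and breakdown. Gpd1 had a step of 5.38 with the empty and 3.06 with the SETD5 virus (difference -2.32 ± 0.27, adjusted p = 0.0151), Dgat2, which makes triglycerides from diglycerides, 3.01 and 1.30 (-1.71 ± 0.29, adjusted p = 0.0475), and Pnpla2, the lipase that starts their breakdown, 2.45 and 0.93 (-1.52 ± 0.26, adjusted p = 0.0475). Adig, a small adipocyte protein, had the lowest adjusted p (4.78 and 1.82, difference -2.96 ± 0.24, adjusted p = 0.00266), and Thrsp, Hp, Steap4, Insig1, Cyp51, Bckdhb, Klf15, G0s2 and Slc2a4 were the other named genes called. All these steps were larger with the empty virus. Of these genes, Gpd1, Adig, Thrsp, Steap4, Klf15, G0s2 and Slc2a4 were tested only through their insulin only arrays. Adipoq, the largest of the named rises, was not among the 38. Its step was 5.26 with the empty and 6.30 with the SETD5 virus. Pparg (-1.16 ± 0.29, adjusted p = 0.121) and Cebpa (-1.14 ± 0.21, adjusted p = 0.0598) were not called. The count was 62, 218, 962 and 121 when both arrays at 36, 48, 96 or 192 h were left out.

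Median steps of the lists are given side by side, with no test. The median step with the empty and the SETD5 virus was 1.87 and 0.23 for lipid droplets and lipolysis, 1.42 and 0.27 for triglyceride assembly, 0.98 and -0.24 for fatty acid synthesis, 0.99 and 0.12 for branched-chain amino acid breakdown, and 1.17 and 0.01 for cholesterol synthesis and uptake. For fatty acid uptake and carriers it was 0.84 and 0.70, and for secreted fat cell proteins 1.72 and 1.05. It was -0.84 and -0.77 for cAMP response genes, -0.58 and -0.80 for glucocorticoid targets, and 0.26 and 0.50 for actin and contractile genes. Among the returns from below 125 of 480 genes (26%) had the larger step with the empty virus, and among the returns from above 119 of 281 (42.3%). Of the 23 further rises, 18 (78.3%) had the larger step with the empty virus, as had 352 of 486 new falls (72.4%) and 53.6% of all tested genes.

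**Figure D5:**
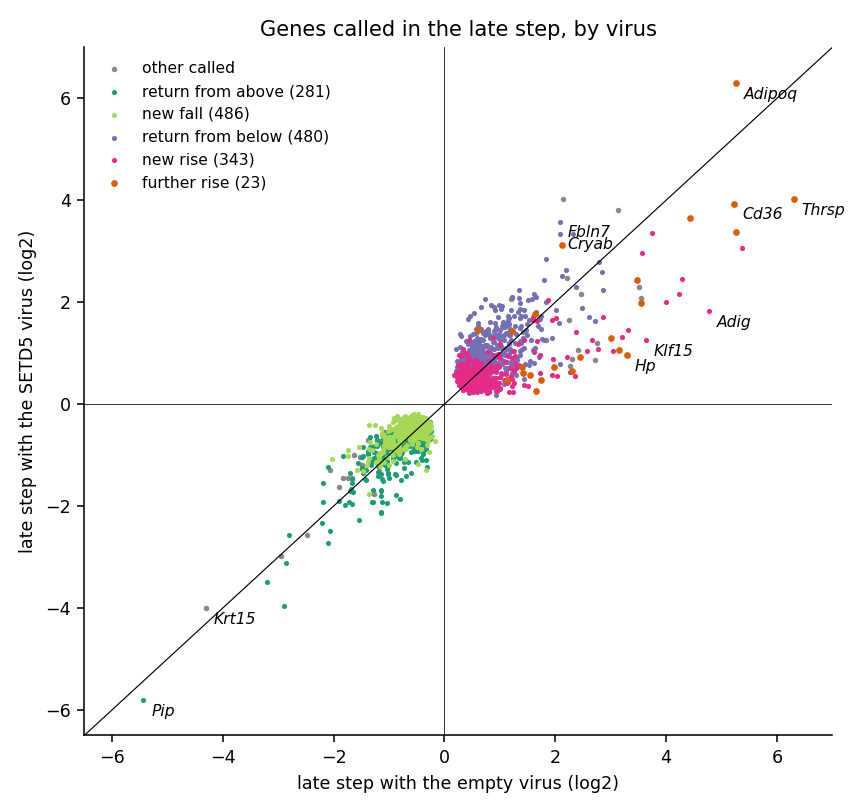
Late step with the empty virus (horizontal axis) against the late step with the SETD5 virus (vertical axis), in log2 of intensity plus 16, from the model with a step for each virus. Only genes called in the late step over both viruses are drawn. All 1649 genes called over both viruses have the same sign on both axes, and the difference between the steps was called for 0 genes when the hour was left out of the model and for 38 with the hour as a block.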

How the data were processed

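Total RNA of 14 samples of 3T3-L1 cells (empty or SETD5 virus, 7 time points each, 1 array per virus and hour) was hybridised to Affymetrix whole-genome mouse arrays. The authors deposited linear intensity values, computed with GeneChip Analysis Suite 5.0 and scaled so that the mean of each array after trimming 2% at each end was 100; no further background step is described. Of the 45100 probe sets deposited, 64 controls were left out. A single gene symbol was given for 34944 probe sets, several for 932 and none for 9160, giving 18193 genes with 1 probe set each. Genes at an intensity of 50 on at least 3 arrays (8682) were tested with limma 3.58.1 in R 4.3.3 on log2(intensity + 16), with lmFit and eBayes and Benjamini-Hochberg adjustment, two-sided. Residual degrees of freedom were 5 for the late step (virus as a block), 4 for a step within each virus, 4 for separate late hours, 2 for the difference between viruses with the hour as a block and 3 for the mixture response. Arrays give no counting depth, and their number limits the precision; on the tested genes, arrays of the same virus and phase correlated at 0.942 to 0.984 and arrays of different viruses at the same hour at 0.931 to 0.986. The labels give no replicate numbers, so replicate names pair nothing; virus was the block of the late step.

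Genes were named by rule: the 10 largest rises and falls among called genes with a mean of 100 or more in a phase and the same order within each virus, the 5 largest of each class, up to 4 genes of each list by size of late step, and a fixed set of adipogenic and hormone-response genes. Nr4a1 and Rgs2, shown with their promoters, were chosen after their values were seen. The comparison, its gene lists and its rules were chosen with earlier results of these data known, so no list's direction is independent evidence. Alternatives covered scaling, offset, filter, probe set, variance prior, hours used, limits of the classes and leaving out each array. Promoter sequences are from RefSeq (GRCm38.p6); 7157 of the 8682 tested genes were matched, and 5 motifs (the cAMP element, its core, the glucocorticoid element, CCAAT and TTTGAA) were searched on both strands, beside a C/EBP and a PPAR site. The fits were tested on simulated data.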

Additional observations from a re-analysis of the deposited data

Results flagged for a closer look

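In groups of 4 arrays, a sample was noted when its gap to the nearest of the others took up nearly the whole range of the group, which chance alone does in about 1 in 20 groups. This held for 14 of 304 groups among the named genes (4.61%). On the empty virus array at 48 h, Clec3b was at 16.2 against 1.8 to 2.8 on the other end of mixture arrays, Mrap at 34.4 against 1.8 to 3.3, Acta2 at 95.8 against 233.2 to 261.0, Tagln2 at 450.3 against 533.6 to 545.1, Agpat2 at 505.9 against 107.5 to 138.3, and Pdhb at 1279.1 against 992.8 to 1036.3. On the empty virus array at 36 h, Cebpb was at 4083.4 against 3302.4 to 3381.8. On the SETD5 array at 36 h, Cryab was at 85.0 against 171.4 to 195.6. On the SETD5 array at 48 h, Klf15 was at 6.1 against 0.8 to 1.2, Birc5 at 115.0 against 252.1 to 284.0, and Steap4 at 1.3 against 0.4 to 0.5. Among the insulin only arrays, Irs2 was at 136.0 with the empty virus at 192 h against 72.4 to 79.8 elsewhere, Crem at 82.4 on the same array against 46.2 to 48.6, and Pfkp at 162.5 with the empty virus at 96 h against 119.9 to 122.9. Clec3b, Mrap, Klf15 and Steap4 were tested only through their insulin only arrays.

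For 3 named genes both insulin only arrays moved one way with the empty virus and the other way with the SETD5 virus. The step of Pparg was 1.01 with the empty and -0.15 with the SETD5 virus, a difference of -1.16. That of Pdhb, a pyruvate dehydrogenase subunit, was 1.16 and -0.08, a difference of -1.24. That of Crem was 0.32 and -0.40, a difference of -0.72. The limma test of each difference gave an adjusted p of 0.782. With the hour as a block the adjusted p was 0.121 for Pparg, 0.0731 for Pdhb and 0.218 for Crem, so none passed.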

How the results depend on the processing

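The late step rests on 8 arrays of different hours. Every called gene kept its sign against 48 h alone (1649 of 1649), on arrays that were part of the call. No gene was called there (0 higher, 0 lower, with 2226 at an unadjusted p below 0.05 and a lowest adjusted p of 0.0525 by limma). Intensity trend and robust variances gave 4 calls in that setting and every probe set gave 28. Of the 109 called genes that are named, all therefore lost the call under at least 1 of 21 alternatives, 55 of them under another alternative than that one, and 0 changed sign. Without virus as a block, the late step had 614 rises and 617 falls. Pairing the viruses by hour, with the hour as a replicate block, gave 38 calls for the difference between the viruses instead of 0 (35 with trend and robust variances), and 62 to 962 with both arrays of 1 hour left out. The hour is nested in the late step, so that it could not be blocked there.

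At 96 h alone the late step had 431 rises and 308 falls. With both hours in 1 model there were 268 and 197 at 96 h and 1369 and 1393 at 192 h. With every probe set there were 1365 rises, 1182 falls, 427 returns from above, 769 returns from below and 3793 calls in the mixture response, which had 4817 at 24 h alone. A limit of 2-fold left 125 returns from above and 254 from below, and a limit of 1.2-fold gave 477 from above. The step with the empty virus had 82 calls with an offset of 4, 11 without the filter, 332 with every probe set and 211 with trend and robust variances, and that with the SETD5 virus had 97 without the filter. Between 96 and 192 h, no filter left 51 higher and 90 lower, and 0 cAMP response genes lower.

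Leaving out 1 array at a time gave 289 to 938 rises and 216 to 916 falls, 122 to 328 returns from above, 199 to 502 from below, 0 to 1777 calls with the empty virus, 0 to 733 with the SETD5 virus, 0 to 80 for their difference and 1 to 2186 for the mixture response. Between 96 and 192 h it gave 6 to 266 higher, 22 to 295 lower, 7 to 10 glucocorticoid targets and 0 to 2 cAMP response genes lower, and at 96 h 0 to 5 and 1 to 10 lower. The late step of Crem, not called, ran from -0.2345 to 0.0727 with 1 array left out and turned to 0.1242 at 192 h alone and 0.0119 against 48 h alone. That of Fabp5, not called, turned to -0.0772 against 48 h alone. The causes were not tested. Dim genes limit the rest, since 402 called genes were under an intensity of 50 on at least 1 of the 8 arrays.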
